A study of Oreochromis niloticus with 5 samples.

Results

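Troponin T of fast muscle was examined in Nile tilapia (Oreochromis niloticus) through the 11 transcripts that the deposited count table lists for the gene LOC100707421, out of 80416 listed features. The members were all features on the plus strand of linkage group 7 that lay wholly between positions 3581233 and 3593692 of the assembly O_niloticus_UMD_NMBU, which is the extent of this gene in the RefSeq gene table. They carry the annotation's names rna15902 to rna15912, and 0 other listed features on either strand overlapped the gene. The name comes from the study, which calls the gene a troponin T of fast skeletal muscle, while RefSeq gives it a LOC symbol.

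The libraries came from fast (white) muscle of 5 full-sib males, 1 library per fish, named M1 to M5, and values of all fish are given in that order. The labels give an age of 5 months, whereas the study's methods describe a longer rearing in a shared tank. The fish had no treatment and were of 1 condition and 1 family, so the spread between them is a spread between brothers. Total RNA was depleted of ribosomal RNA, sequenced as read pairs and counted as fragments per transcript. Total counts ranged from 26750559 to 90337019 per fish, with a median of 36731226. M1 held the most ribosomal RNA, 0.201% of its counts, and the other fish at most 0.0164%. In the library statistics of the study M1 also had by far the lowest alignment rate, and the lowest share of assigned fragments.

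Troponin T is the subunit that fastens the troponin complex to tropomyosin on the thin filament of the sarcomere. Together with troponin I, which holds back the actomyosin ATPase, and troponin C, which binds calcium, it lets calcium switch contraction on and off. In mammals and birds the fast skeletal gene is known for its many splice forms, which differ in part by short exons near the amino-terminal end of the protein. Separate genes encode the slow skeletal and the cardiac forms, so troponin T also serves as a marker of muscle type.

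Most of the markers found for the labelled tissue were abundant. The fast fibre markers had a summed level between 90400 and 108000 TPM (a level divided by transcript length and scaled to the same sum in every library), with 9 of 12 listed markers found by symbol and 8 counted in every fish. Of the 9 found, mylpfb, atp2a1 and mybpc2a were low, with means of 16.5, 1.27 and 0.107 TPM, and the others had means of at least 3140 TPM. The slow fibre markers summed to between 22.0 and 154 TPM, with 7 of 12 found and 5 counted in every fish. The highest of these slow markers was mb, with a mean of 57.4 TPM. The upper end of the sum was M1, where mb had 136 TPM, against at most 53.7 in the other fish. In M1 mybpc1 had 14.0 TPM, against at most 0.174 in the others. By contrast, atp2a2a and atp2a2b were highest in M4, with 2.72 and 1.14 TPM. The heart markers summed to at most 0.0751 TPM, with 4 of 6 found, and nppa, nppb and myl7 had 0 counts in all fish. Fibroblast markers (5 of 5 found) summed to between 211 and 515 TPM, and red blood cell markers (2 of 4 found) to between 2.76 and 6.0 TPM. Of 4 adipocyte markers fabp4a alone was found, between 96.4 and 164 TPM, and of 4 liver markers fgb alone, which had 0 counts.

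The exons of troponin T fell into a long common part and a short variable part near the 5′ end. Over the 11 transcripts there were 19 distinct exon blocks, of which 11 blocks with 988 bases in all occurred in every transcript. The other 8 blocks were 5 forms of the first exon and 3 cassette exons, that is, exons that a transcript either holds or skips. The cassette exons lay next to each other, between a shared exon of 11 bases (3583415 to 3583425) and a shared exon of 19 bases (3587344 to 3587362). Downstream of these no exon varied, and the 41-base exon (3590173 to 3590213) and the last exon of 317 bases (3593376 to 3593692) were in all 11 transcripts.

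The first cassette exon had 9 bases (3583995 to 3584003) and was in 7 of the 11 transcripts. The next one had 141 bases (3584468 to 3584608) and was in 5 transcripts, and the last had 18 bases (3586679 to 3586696) and was in 6. Each of these lengths is a multiple of 3, so that a cassette exon, where it is coding, adds or removes whole codons. The 3 exons could be combined in 8 ways and 6 combinations were listed, 5 of them in 2 transcripts each. All 3 cassette exons were in rna15907 and rna15902, and none was in rna15912 and rna15904. The 9-base and 141-base exons without the 18-base exon were in rna15908 alone, which was the only combination listed once. The 9-base exon was the one skipped in rna15909 and rna15903, the 141-base exon in rna15910 and rna15905, and rna15911 and rna15906 held the 9-base exon only. The 18-base exon was never listed without another cassette exon, and neither was the 141-base exon.

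The first exon came with 2 ends. In 6 transcripts (rna15907 to rna15912) it ended at 3581358, and in the other 5 it ended at 3581292, so that the longer form had an extension of 66 bases from 3581293 to 3581358. It had 5 listed starts between 3581233 and 3581260. Each of the 5 combinations listed in 2 transcripts was listed once with the longer and once with the shorter first exon. Transcript lengths ranged from 1031 bases in rna15904, with 12 exons, to 1256 bases in rna15907, with 15 exons, a difference of 21.8%.

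**Figure D1:**
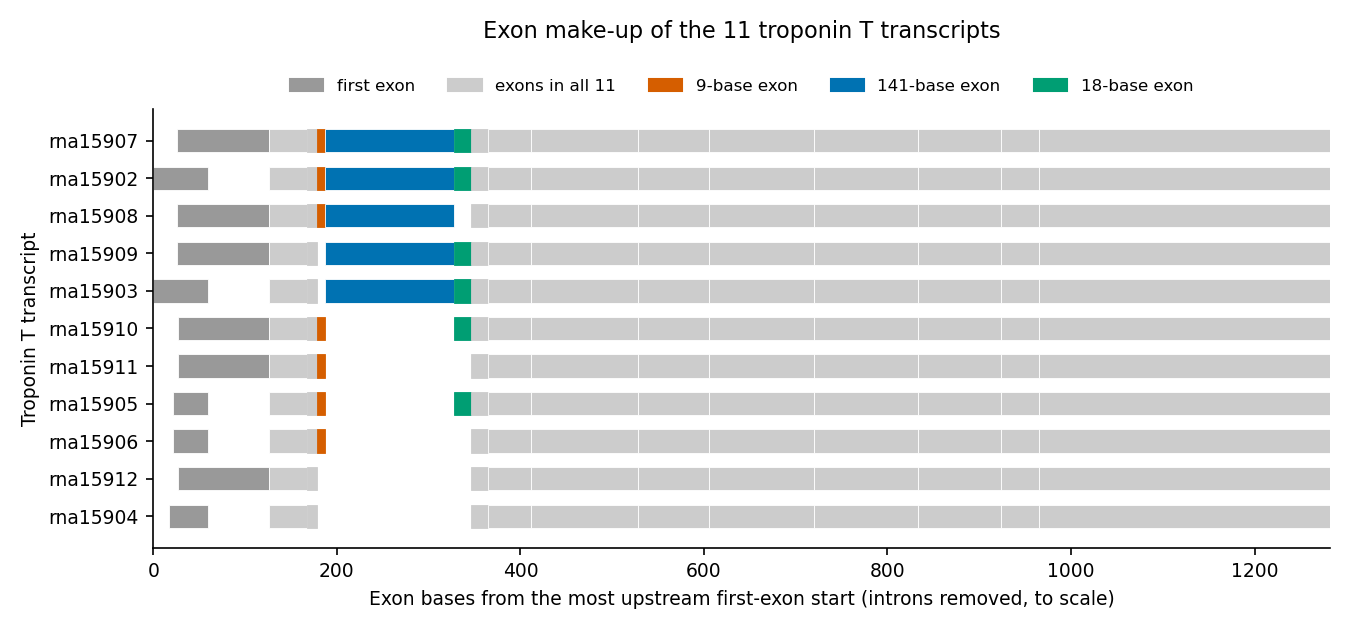
Exon make-up of the 11 troponin T transcripts, ordered from the highest (top) to the lowest mean normalized count. The x axis gives exon bases with introns removed, drawn to scale, grey marks the first exon and the exons shared by all, and colours mark the cassette exons of 9, 141 and 18 bases. The blocks that vary are the first exon and the cassette exons, while the blocks that are identical in all 11 hold 988 bases.

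The counts of all 11 transcripts were nearly the same. The highest, rna15907, had 223156, 689439, 266912, 287318 and 312010 counts in M1 to M5. After division by the size factors of the libraries (normalized counts), these were 367398, 312929, 289166, 347158 and 310992 in M1 to M5. The highest fish, M1, was 1.27 times the lowest, M3, and the other fish were spread between them. The mean was 325528 ± 31278 normalized counts (SD, n = 5 fish), a coefficient of variation of 9.61%. Without M1, the fish with the most ribosomal RNA and the lowest alignment rate, the mean was 315061.

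The lowest transcript, rna15904, had 221555, 686062, 265715, 285684 and 310285 counts in M1 to M5. Its mean was 323697 ± 30786 normalized counts (SD, n = 5 fish). The highest mean was thus 1.0057 times the lowest, and the difference of 1832 normalized counts was far below the smallest SD of any transcript between fish, 30727. Within a fish rna15907 was nevertheless highest and rna15904 lowest, in 5 of 5 fish. A fragment was counted on every transcript that it touched. As rna15907 holds all exon bases of rna15904 except a few at the start of the first exon, this order follows largely from the counting. The rank of rna15907 among all features was 10 by mean normalized count, and between 9 (M4 and M5) and 12 (M3) within single fish. The ranks of the 11 transcripts by mean were the places from 10 to 20 without a gap.

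A fragment that touched an exon of several transcripts was counted once on each of them, so the counts are not estimates of the amount of each splice form. The single transcript rna15907 took 0.797% ± 0.0519 of the counts of a library, and the 11 transcripts together took 8.74% ± 0.566 (SD, n = 5 fish) because the same fragments were entered 11 times in most cases. The count of rna15912, which holds no cassette exon, was 99.29%, 99.65%, 99.56%, 99.44% and 99.45% of that of rna15907, which holds all of them, in M1 to M5.

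Division by length turned the order round. On the TPM scale the shortest transcript, rna15904, was highest, with 18315 ± 826 TPM, and the longest, rna15907, lowest, with 15118 ± 695 TPM (SD, n = 5 fish). The ratio of these means, 1.21, is close to the ratio of the lengths, 1.22. In TPM the rank of rna15907 among all features was 17 and that of rna15904 was 5. The order of the transcripts thus depended on the scale, and neither scale gives the amount of each splice form.

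**Figure D2:**
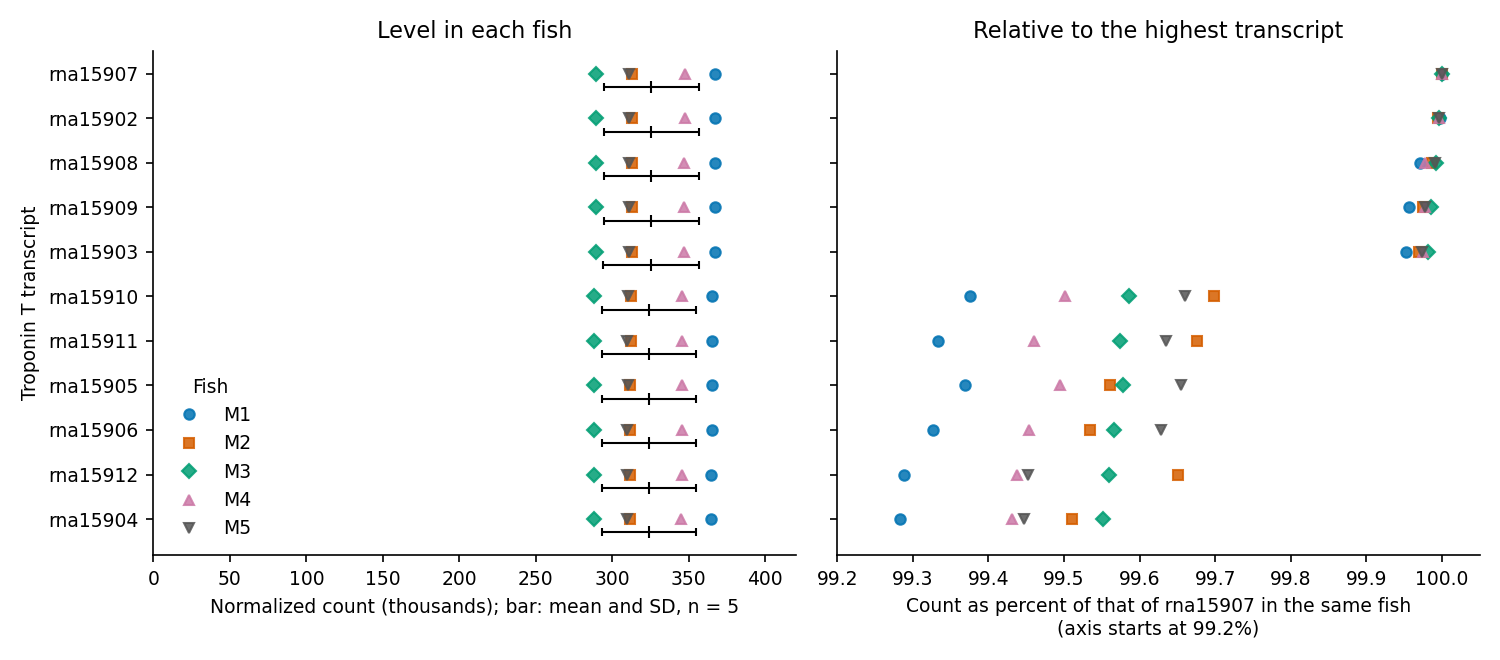
Levels of the 11 troponin T transcripts. The left panel plots normalized counts from 0, divided by 1000, with 1 symbol per fish and the mean with its SD (n = 5) below, and the right panel plots the count of each transcript as a percent of that of rna15907 in the same fish, on an axis that does not start at 0. The 5 transcripts with the 141-base exon lie above the 6 without it in every fish, which follows in part from the counting. The mean of the highest is 1.0057 times that of the lowest.

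The small differences between transcripts do say which fragments touched a variable exon and no shared one. Where the exon bases of one transcript contain all those of another, the difference of their counts is the number of fragments that touched the extra bases alone. Of the 55 pairs of transcripts, 17 were nested in this way, and the larger had more counts in 5 of 5 fish in 17 of them, by between 0.0163% and 0.552% on average. The sign is fixed by the way of counting, so no test is read from it (an exact paired sign-flip permutation test cannot go below p = 0.0625 with 5 fish). Fragments that joined a variable exon to a shared one are counted on all 11 transcripts and stay unseen, so these numbers hold only part of the fragments that touched an exon and cannot be turned into a share of splice forms.

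The 141-base exon, the longest of the cassette exons, set the transcripts apart most. Each of the 5 transcripts that hold it had more counts than each of the 6 that do not, in 5 of 5 fish. For the nested pairs among them the counting does not allow the reverse order. Fragments that touched the 141-base exon alone, read as rna15907 minus rna15910 (which also differ by 1 base of the first exon), numbered 1394, 2077, 1105, 1431 and 1060 in M1 to M5. Relative to the count of rna15907 they were 0.625%, 0.301%, 0.414%, 0.498% and 0.340% in M1 to M5, a mean of 0.436% ± 0.130 (SD, n = 5 fish). The highest share was in M1 and the lowest in M2, the most deeply sequenced fish.

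The 2 smaller cassette exons left fewer such fragments. The numbers are not divided by exon length, so they cannot be read as a difference per base between the exons. The 9-base exon was touched alone by 98, 174, 38, 63 and 70 fragments in M1 to M5, or 0.0256% ± 0.0110 of the rna15907 count (SD, n = 5 fish). The same 5 numbers came from both pairs that differ by this exon alone, rna15907 minus rna15909 and rna15902 minus rna15903, which have different first exons. Both pairs count the same fragments, so the second is not a separate observation. The 18-base exon was touched alone by 65, 90, 22, 63 and 28 fragments in M1 to M5, or 0.0163% ± 0.00902 (SD, n = 5 fish). M1 had the highest and M3 the lowest share for both of these exons. Within a fish, the 9-base exon had more such fragments than the 18-base exon in M1, M2, M3 and M5, and both had 63 in M4. All 3 cassette exons were thus touched by fragments in every fish. The reads that the study kept were longer than the 9-base and the 18-base exon. A read counted on such an exon alone therefore did not lie wholly within it. Whether these fragments came from spliced RNA was not tested, so their numbers do not say how often an exon was kept.

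Fragments that touched the 18-base and the 141-base exon together, without the 9-base exon or a shared one, were found in every fish. There were 30, 66, 11, 57 and 53 in M1 to M5, or 0.0128% ± 0.00619 of the rna15907 count (SD, n = 5 fish). They were obtained as the count of rna15910 minus rna15911, less that of rna15907 minus rna15908. M4 had the highest share and M3 the lowest.

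Fragments that touched the 9-base exon and another cassette exon, but no shared exon, came almost wholly from 1 fish. They numbered 497 in M5 and at most 1 in each other fish. In M5 they were 0.159% of the rna15907 count, and in the next fish 0.000375%. In M5 rna15911 exceeded rna15912 by 567 fragments, and rna15906 exceeded rna15904 by 567 as well. Both pairs differ by the 9-base exon and count largely the same fragments, so the second is not a separate observation. Without M5 the mean share fell to 0.00013%, against 0.0320% with it. Whether the partner was the 141-base or the 18-base exon cannot be told apart with these 11 transcripts. Whether the 497 fragments were separate molecules or PCR copies of fewer molecules was not tested.

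The longer first exon gave a second single-fish pattern, in M2. Among transcripts that lack the 141-base exon, the one with the 66-base extension exceeded its partner with the shorter first exon (rna15910 minus rna15905) by 13, 949, 20, 20 and 17 fragments in M1 to M5. M2 stood at 0.138% of the rna15907 count and the other fish at 0.00749% or less, and without M2 the mean was 0.00643%, against 0.0327% with it. Among transcripts that hold the 141-base exon (rna15907 minus rna15902) the excess was 7, 34, 10, 10 and 14 in M1 to M5, and M2 was close to the others with 0.00493%. Both pairs also differ in how far the shorter first exon reaches upstream, from 3581254 in rna15905 and from 3581233 in rna15902.

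The fragments of M2 can thus be read in more than one way. A total of 915 in M2, and between 3 and 10 in each other fish, touched either the extension together with the 141-base exon or the 21 most upstream bases (3581233 to 3581253), with no base of the first exon between 3581254 and 3581292 and no shared exon. This class was obtained as the excess among transcripts without the 141-base exon, less that among transcripts with it, so it is not a separate observation. The 2 readings cannot be told apart, because the transcripts that hold the 141-base exon and the short first exon are also those that start furthest upstream. A further 25 fragments in M2, and at most 1 in each other fish, touched the extension and the 18-base exon but no shared exon. The bases between the mates of a read pair are not sequenced and do not count as touched, so such a pair may still span the shared exons of 41 and 11 bases. Without M2, the mean share of the 915 fell to 0.00272%, against 0.0287% with it. Whether the 915 fragments were separate molecules or PCR copies of fewer molecules was not tested.

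**Figure D3:**
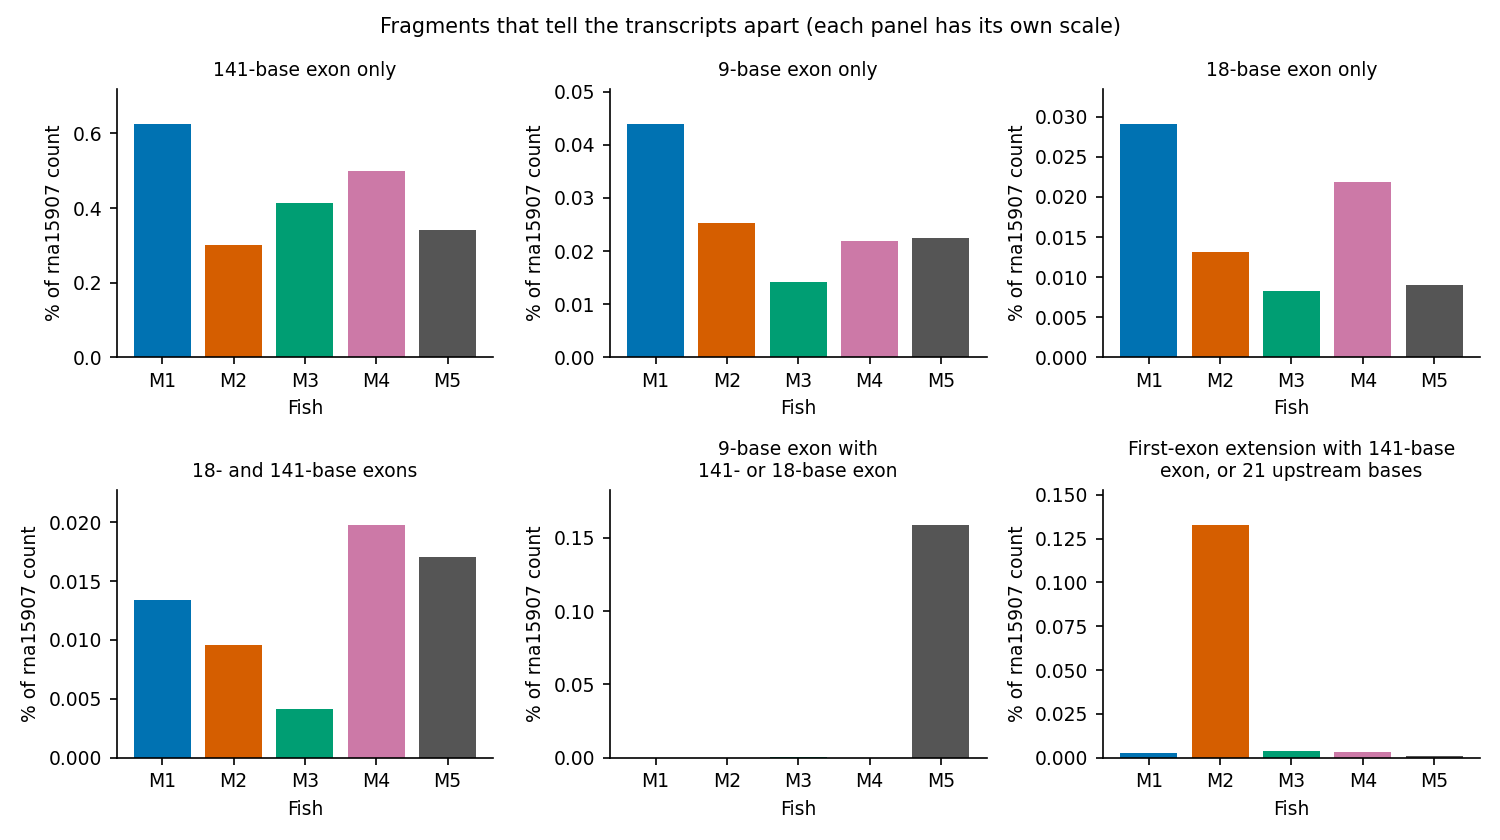
Fragments that touched variable exons of troponin T and no exon shared by all transcripts, as a percent of the count of rna15907 in the same fish. Each panel is 1 class of fragments with its own scale from 0, and each bar is 1 fish. The 9-base exon with another cassette exon reached 0.159% in M5, and the class of the first-exon extension reached 0.133% in M2.

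M2 also decided a place in the order by mean. The mean of rna15911 was above that of rna15905, yet rna15905 had more counts than rna15911 in 4 of 5 fish, and rna15911 had 793 more in M2. Without M2 the means were 327004 normalized counts for rna15911 and 327088 for rna15905.

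Compared with other genes of many transcripts, the likeness of the troponin T counts was common. The table held 189 genes with at least 5 transcripts and a highest mean of at least 1000 normalized counts. The ratio of the highest to the lowest transcript was 1.0057 for troponin T and had a median of 1.03 over these genes, and 58 genes had a smaller ratio. A ratio over 2 was found in 30 of them, or 15.9%. One of the genes with a wider spread was tpm1, a tropomyosin gene on the same linkage group, with a ratio of 1.89. The transcript lengths of troponin T differed by a ratio of 1.22, against a median of 1.19.

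**Figure D4:**
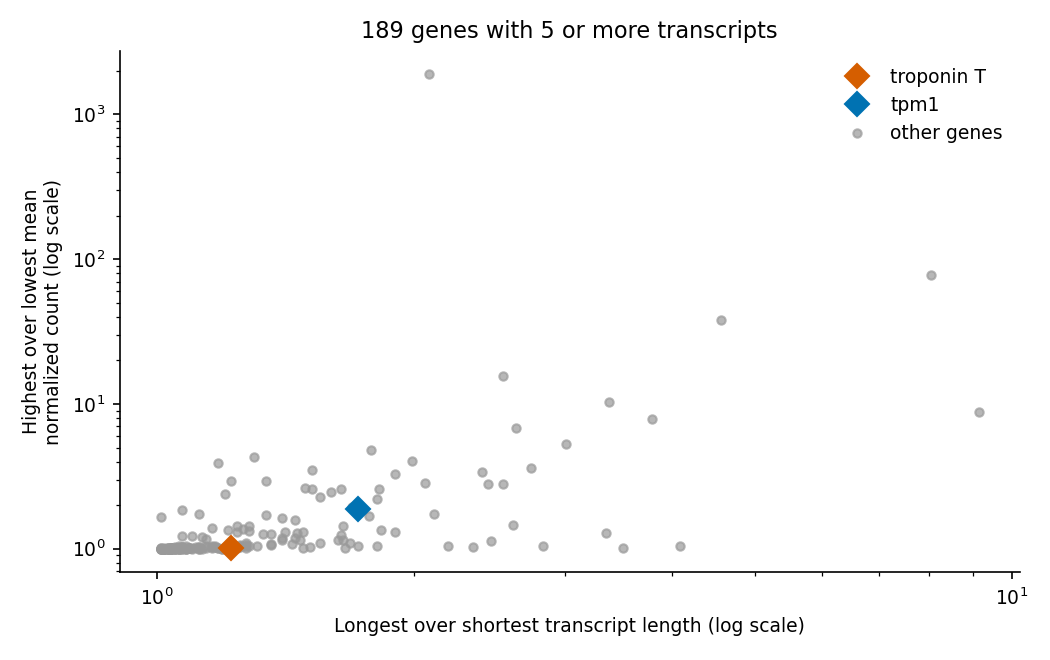
Spread of transcript counts within 189 genes. The x axis gives the ratio of the longest to the shortest transcript and the y axis the ratio of the highest to the lowest mean normalized count (n = 5 fish), both on log scales, with 1 symbol per gene. Troponin T, at 1.22 and 1.0057, lies near the bottom, and tpm1 lies above it at 1.89.

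LOC100707421 was far more abundant than the troponin T genes found by symbol. The RefSeq symbols gave 5 others, tnnt1, the slow skeletal form, and tnnt2a, tnnt2b, tnnt2d and tnnt2e, relatives of the cardiac form, and any other troponin T gene under a LOC symbol was not analysed here. With 1 transcript per gene, LOC100707421 made up 99.279%, 99.984%, 99.988%, 99.922% and 99.941% of the level per length summed over these 6 genes in M1 to M5. The gap in M1 came from tnnt2d, which had 1535 counts there and between 30 and 211 in the other fish. The other 4 genes were close to 0. The slow gene tnnt1 had 4, 9, 0, 1 and 6 counts in M1 to M5, and the other 3 had at most 5 counts in any fish, where a count of 0 allows up to 3.

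The partner subunits with a troponin symbol were low as well. The 10 troponin genes found by symbol had 2 members with a mean of at least 100 normalized counts, tnnt2d and the troponin I gene tnni4b.2, and 8 below it. The level of tnni4b.2 was 80.6, 31.6, 43.6, 404 and 210 TPM in M1 to M5, 98.1 times below troponin T by the means. The troponin C gene tnnc1a, listed here as a slow fibre marker, had between 2 and 26 counts per fish. The slow troponin I genes tnni1a, tnni1b and tnni1c had at most 23. Genes of the fast troponin I and C were not identified by symbol in RefSeq and were not analysed here, so the levels of the fast subunits could not be set side by side.

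Against the named thin filament genes, troponin T was high but not the highest. The list had 23 genes of troponins, tropomyosins, tropomodulins, leiomodins, nebulin and skeletal actin, of which 14 had a mean of at least 100 normalized counts and 9 had a mean of at most 40.8. The TPM of troponin T (rna15907) was above that of 13 of the 14 in 5 of 5 fish and below that of 1, the actin acta1b, in 5 of 5. In each of these 14 comparisons the two-sided exact permutation test that flips signs within fish gave p = 0.0625, the smallest that 5 fish allow, so none could pass 0.05.

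Troponin T had 15899, 14586, 14491, 15844 and 14771 TPM in M1 to M5. The actin acta1b, which forms the backbone of the filament, had 44911, 43080, 42641, 41911 and 28155 TPM in M1 to M5. Their ranges did not overlap, and the log2 ratio of troponin T to acta1b was -1.39 ± 0.26 (SD, n = 5 fish). For tpm1, to which troponin T binds in the filament, the level was 7470, 6249, 6681, 6166 and 4917 TPM in M1 to M5. The log2 ratio of troponin T to tpm1 was 1.28 ± 0.20 (SD, n = 5 fish), a difference that depends on division by length, since the tpm1 transcript has 2839 bases. By normalized counts the log2 ratio to tpm1 was 0.10 (two-sided exact permutation p = 0.4375), and troponin T was above 12 instead of 13 of the genes in every fish. Troponin T had 223156 counts in M1 and 266912 in M3, and tpm1 was above it in both, with 236995 in M1 and 278157 in M3. The large ruler-like protein nebulin (neb) had 301 ± 25 TPM and tmod4, which caps the filament's pointed end, 886 ± 124 TPM (SD, n = 5 fish).

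The other listed genes lay from 1.79 TPM (lmod1b) to 211 TPM (tpm4b) by their means. Several of them varied far more between fish than troponin T did. The tropomyosin tpm4b had 366, 39.5, 9.69, 523 and 117 TPM in M1 to M5, and tpm2 had 33.1, 4.83, 2.84, 29.1 and 5.09 TPM in M1 to M5. The leiomodin lmod2b reached 89.6 TPM in M4 and was between 8.15 and 26.5 TPM in the other fish. In contrast, troponin T stayed between 14491 and 15899 TPM in all fish. The part of fibres other than fast ones in the values of tpm4b, tpm2 and lmod2b was not tested, and in such bulk RNA fewer cells of a type and less RNA per cell cannot be told apart.

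**Figure D5:**
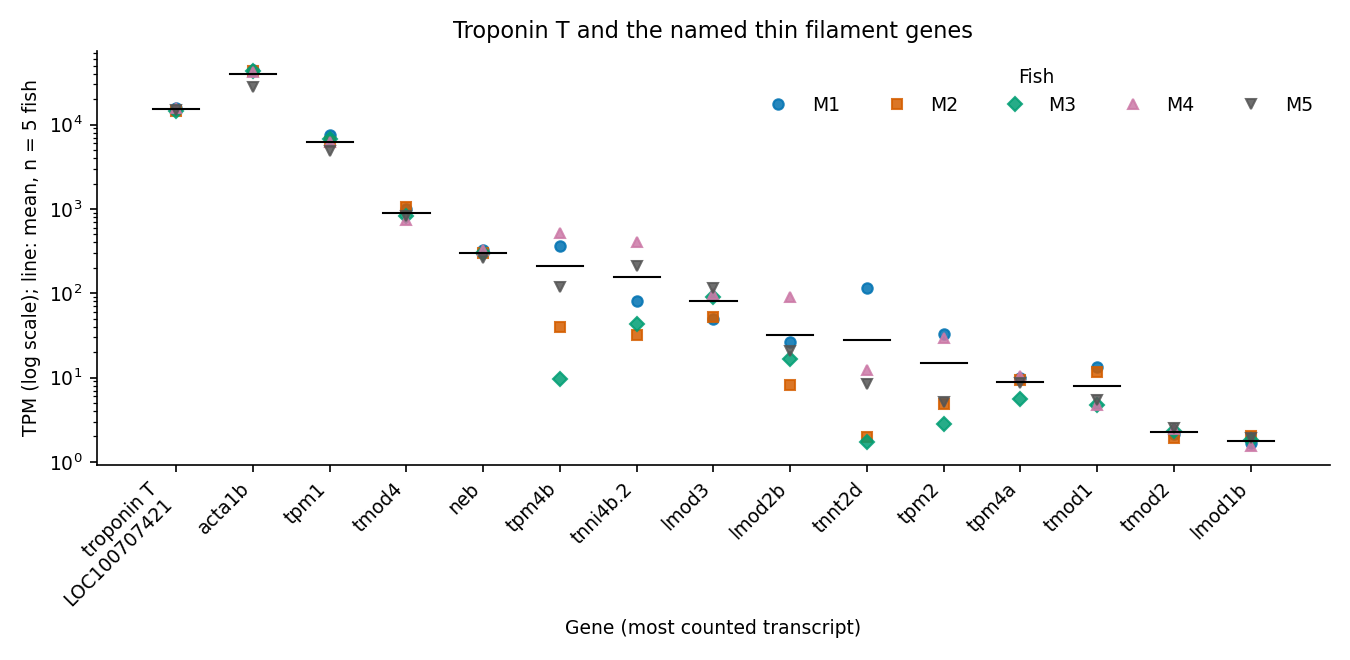
Level of troponin T (rna15907) and of the 14 named thin filament genes with a mean of at least 100 normalized counts, by their most counted transcript. The y axis is TPM on a log scale, symbols are the 5 fish and lines their means. Troponin T, at 15118 TPM, lies between acta1b at 40140 and tpm1 at 6296 TPM, and its fish are closer together than those of tpm4b or tnnt2d.

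The level of troponin T was steady between fish relative to most abundant genes. The SD of its log2 normalized count was 0.138, the 15th smallest of 164 genes with a mean of at least 10000 normalized counts, whose median was 0.267. Likeness to its pattern was measured as the SD over the 5 fish of the log2 ratio of a gene to rna15907, where a smaller SD means a more alike pattern. The 5 closest of 163 genes were rpl7a (0.0458), the glycolytic enzyme gene pgk1 (0.0510), rpl4 (0.0705), eef1g (0.0759) and rpl6 (0.0793), against a median of 0.285. Of these rpl7a, rpl4 and rpl6 encode ribosomal proteins and eef1g a translation elongation factor subunit. How many of the 163 genes encode proteins of these kinds was not counted, so no excess of them is read from this. As an example, the normalized count of rpl7a was 17857, 14881, 13886, 16808 and 16035 in M1 to M5, always between 4.76% and 5.16% of that of rna15907. Of the listed thin filament genes, only those with a mean of at least 10000 entered this comparison. Among them neb was closest, in place 8 with an SD of 0.0931, while tpm1 was in place 41, tmod4 in place 50 and acta1b in place 72. The order rests on 5 fish, and with each fish left out 2 to 3 of these 5 genes remained among the first 5, rpl7a each time.

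The neighbours of troponin T were not expressed alike. The nearest gene downstream, myod1, which encodes a master transcription factor of muscle, lies on the other strand with 2987 bases between the genes. It had 1844, 2290, 850.4, 2303 and 2037 normalized counts in M1 to M5, and its mean level of 52.6 TPM was 288 times below that of troponin T. The nearest gene upstream, prr33, lies on the other strand with 9953 bases between the genes and had a mean of 222 TPM, 68.2 times below troponin T. The extent of lsp1a, which is on the same strand as troponin T, overlaps that of prr33, and lsp1a had 2.55 TPM. Whether fragments of one of these overlapping genes were counted on the other was not tested. M3 was the lowest fish for both troponin T and myod1, but M3 was the highest for prr33.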

How the data were processed

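Fast muscle RNA from 5 fish was used, 1 library each and 1 condition. According to the study's methods reads were trimmed and aligned with HISAT2 2.1.0 by the authors, who then counted fragments per transcript with featureCounts. They kept primary alignments, left out chimeric fragments and let a fragment match several transcripts. The methods call duplicates ignored, and it is not clear whether duplicate fragments were left out of the counts. The values they deposited are raw counts, and the deposited file also holds other numbers used here, the length and exon limits of each transcript. The strand setting of the counting is not given in the sources used here. All sample columns were used (0 left out).

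Counts were divided by median-of-ratios size factors (0.607 to 2.20) from DESeq2 1.42.0 in R 4.3.3. TPM was computed over all features, and the repeated entry of fragments changes every value. With 1 transcript per gene troponin T had 27616 to 30511 TPM. Features were matched to RefSeq genes by coordinates (79095 of 80416). Because the gene table holds no descriptions, the thin filament list was made from symbols (tnnc, tnni, tnnt, tpm, tmod, lmod, neb, acta1), and a gene is shown by its most counted transcript. Named are all 11 members, the listed genes with a mean of at least 100, the 5 closest patterns and the nearest genes; tnnt1, tnnc1a, the tnni1 and the other tnnt2 genes below that mean, and lsp1a, were named after their values were seen. The members and lists were chosen with earlier results of these data known. The classes of fragments were defined after the counts were seen.

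Intervals of counts would cover counting error only, since PCR reads are not independent molecules, and a count of 0 allows up to 3. Each fish is a separate animal. Dixon's ratio (critical value 0.71 for 5 values, 95%) marked single fish. Alternatives were edgeR 4.0.16 TMM factors, library totals, TPM or counts, pseudocounts of 0.1 and 1, other minimum levels and leaving out each fish. The computation of size factors and fragment classes was tested on simulated data. Python 3.11.15, numpy 2.4.6, pandas 2.3.3 and matplotlib 3.10.9 were used. No sequence of the gene was used here.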

Additional observations from a re-analysis of the deposited data

Results flagged for a closer look

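Of 28 sets of 5 values examined with Dixon's ratio, 7 held a fish far from the others, and chance gives about 1.4. The sets are not independent, since 3 of the 7 concern the first-exon extension in M2, and the fragment classes were defined after the counts were seen. No excess over chance is therefore read from the 7.

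For fragments with the 9-base exon and another cassette exon, M5 had 0.159% of the rna15907 count and the next fish 0.000375%. For the first-exon extension with the 141-base exon, or the 21 upstream bases, M2 had 0.133% and the next fish 0.00375%. For the extension with the 18-base exon, M2 had 0.00363% and the next fish 0.000448%, and for the extension among transcripts without the 141-base exon M2 had 0.138% and the next fish 0.00749%. These rest on 497, 915, 25 and 949 fragments. The 915 are the 949 less 34, the excess in M2 among transcripts that hold the 141-base exon. Both sets thus hold largely the same fragments and are not separate observations.

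The log2 TPM ratio of troponin T to acta1b was -0.93 in M5 and -1.40 in the next fish. The ratio to neb was 5.82 in M5 and 5.62 in the next fish, and for tpm4a the ratio reached 11.36 in M3, with 10.73 as the next value.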

How the results depend on the processing

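No paired analysis was possible because there is only 1 group of fish to compare, while transcripts and genes were compared within each fish. Of the values recomputed for the main results, 9 moved beyond the SD between fish or, for counts and places, by over 1.5 times, and 97 did not. That SD includes the outlying fish, and 7 of the 97 changed by over 1.5 times. Without M5 the class of the 9-base exon with another cassette exon was 0.00013%, against 0.0320% with it. Without M2 the classes of the first-exon extension were 0.00272% with the 141-base exon or the upstream bases, 0.000112% with the 18-base exon and 0.00643% among transcripts without the 141-base exon, and with counts summed over fish they were 0.0531%, 0.00146% and 0.0573%. No ratio to a single thin filament gene changed sign in 126 recomputations, but with normalized counts in place of TPM the log2 ratio to tpm1 was 0.10 (exact permutation p = 0.4375) and that to neb 1.66. The level of troponin T lay between 315061 and 334619 normalized counts with each fish left out. The rank of rna15907 was 17 in TPM. The ratio of the highest to the lowest transcript ranged from 1.0045 to 1.0072 within single fish. Of the 5 closest patterns, 2 remained among the first 5 at a minimum mean of 1000, and 2 to 3 with each fish left out. Troponin T stood at 31.2% of the genes ordered by transcript spread, and at 24.3% to 36.4% with other minimums. Library depth does not limit the counts of troponin T, but the classes of variable exons rest on few fragments.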
